A study of Mus musculus with 80 samples.

Results

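The comparison is between nuclei of liver macrophages from mice fasted for 24 h and from mice fasted for 3 h. It holds 8 of the 80 libraries of the series: the 4 macrophage-tagged libraries of the 24 h fast and the 4 of the 3 h fast, chosen by their labels, without the pools of unpurified liver. All 8 come from female MAC-INTACT mice, a line whose macrophage nuclei carry a purification tag so that they can be captured on beads from whole liver. The fast began at zeitgeber time 12 (ZT12), when the dark, active phase of the mouse starts. Livers of the 24 h fast were therefore taken at ZT12 and livers of the 3 h fast at ZT15, so the length of the fast and the time of day move together. Levels in ad libitum fed MAC-INTACT mice at the same 2 times, 4 libraries each, are set beside many of the results, though not all. They are called 24 h fed and 3 h fed. Neither the promoter that drives the tag nor the number of mice behind each tagged library was given in the labels used here. The p-values therefore reflect how far libraries of a group differ, which may in part be technical.

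Kupffer cells, the resident macrophages of the liver, line its blood vessels, take up particles and dying red cells, and maintain their number largely by dividing in place. Fasting changes the fuels, hormones and gut products that reach them through the blood. Total nuclear RNA, sequenced without selection for polyadenylated RNA, contains unspliced transcripts and so follows transcription more closely than whole-cell RNA does.

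Totals were 17508584 to 27834415 counts per library at 24 h fast and 26052148 to 32564897 at 3 h fast. The label was checked first. Clec4f, a lectin made by Kupffer cells, was higher in the 32 macrophage-tagged libraries than in the 8 pools of unpurified nuclei of the same line by 4.36 ± 0.14 on the log2 scale, and Vsig4, a complement receptor of tissue macrophages, by 4.39 ± 0.16. Clec4f had 865, 928, 1014 and 805 CPM (counts scaled to a common library total) in the 24 h fasted libraries and 905, 892, 578 and 1169 CPM in the 3 h fasted libraries. Vsig4 had 767, 842, 1119.6 and 906 CPM at 24 h fast and 931, 966, 1947 and 1283 CPM at 3 h fast. For both genes the groups overlapped, and neither log2 change of 24 h over 3 h passed the test (0.03 ± 0.19 with an edgeR adjusted p of 0.93, and -0.50 ± 0.23 with 0.12). RNA of other cells was present: 23 hepatocyte markers together took 13298 to 18535 CPM at 24 h fast and 13120 to 23325 CPM at 3 h fast, against 22320 to 33168 CPM in the pools. Hepatocyte-tagged libraries in turn held macrophage RNA. Kupffer cell and macrophage markers summed there to 424 to 499 CPM at 24 h fast and 468 to 487 CPM at 3 h fast. In the pools they summed to 886 to 1013 CPM. The part of this RNA in changes given for hepatocyte nuclei was not tested.

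One library stood apart, replicate 3 of the 3 h fast. On the first principal component of the 16 libraries, which holds 34.8% of the variance, it lay at -129 and the others between -13.7 and 27.6. Relative to the mean of its group mates, the shortest of 5 equal length classes of genes (up to 10607 bases) was lower in it (median log2 deviation -0.59) and the longest (from 76877 bases) higher (0.37). It also had the highest hepatocyte marker sum of the 16 (23325 CPM, against 13120 to 14454 CPM in the other 3 h fasted libraries). Its part in the results was not tested beyond leaving it out, and the fasted list counts that move without it are given both ways.

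Nuclei of the 24 h fast differed from those of the 3 h fast in 2461 of 13864 genes tested (17.8%), by edgeR's quasi-likelihood test with a Benjamini-Hochberg adjusted p under 0.05, which defines a call throughout. Of these, 1092 genes (7.88%) were higher and 1369 (9.87%) lower at 24 h. The 4 against 4 libraries did not overlap for 1424 genes (10.3%) with all 24 h values higher and for 1347 (9.72%) with all lower. In fed mice the same 2 times differed in 581 genes (4.19%), of which 237 (1.71%) were higher and 344 (2.48%) lower at 24 h. The difference between the fasted and the fed change was called for 641 genes (4.62%), in 233 (1.68%) towards a higher and in 408 (2.94%) towards a lower value in fasted mice. Of the 2461 fasted calls, 177 were also called in fed mice (7.19% of the fasted and 30.5% of the fed calls), 164 of them in the same direction.

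Without replicate 3 of the 3 h fast, 619 genes were called higher and 841 lower, and 1229 of the 2461 calls remained in the same direction. The differences called without it numbered 191 higher and 283 lower. Without replicate 1 or 2 of the 24 h fast the counts were 626 and 836, or 656 and 839, and a fit to the 8 libraries alone called 165 and 309. Genes called lower were longer (median 47948 bases) than genes called higher (16905 bases, against 24206 for all genes tested). Without replicate 3 these medians were 36074 and 21310 bases.

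Among the 2368 macrophage-enriched genes, those more abundant in tagged nuclei than in unpurified liver by more than 1 on the log2 scale with a called difference, lower levels prevailed: 363 fell and 146 rose, and 267 fell and 86 rose without replicate 3. Without replicate 2 or 3 of the 24 h fast 93 or 74 rose, and without replicate 1 or 2 of that group 229 or 235 fell. In fed mice 23 macrophage-enriched genes fell and 24 rose. The difference between the fasted and the fed change was called lower for 163 and higher for 19 of them.

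**Figure D1:**
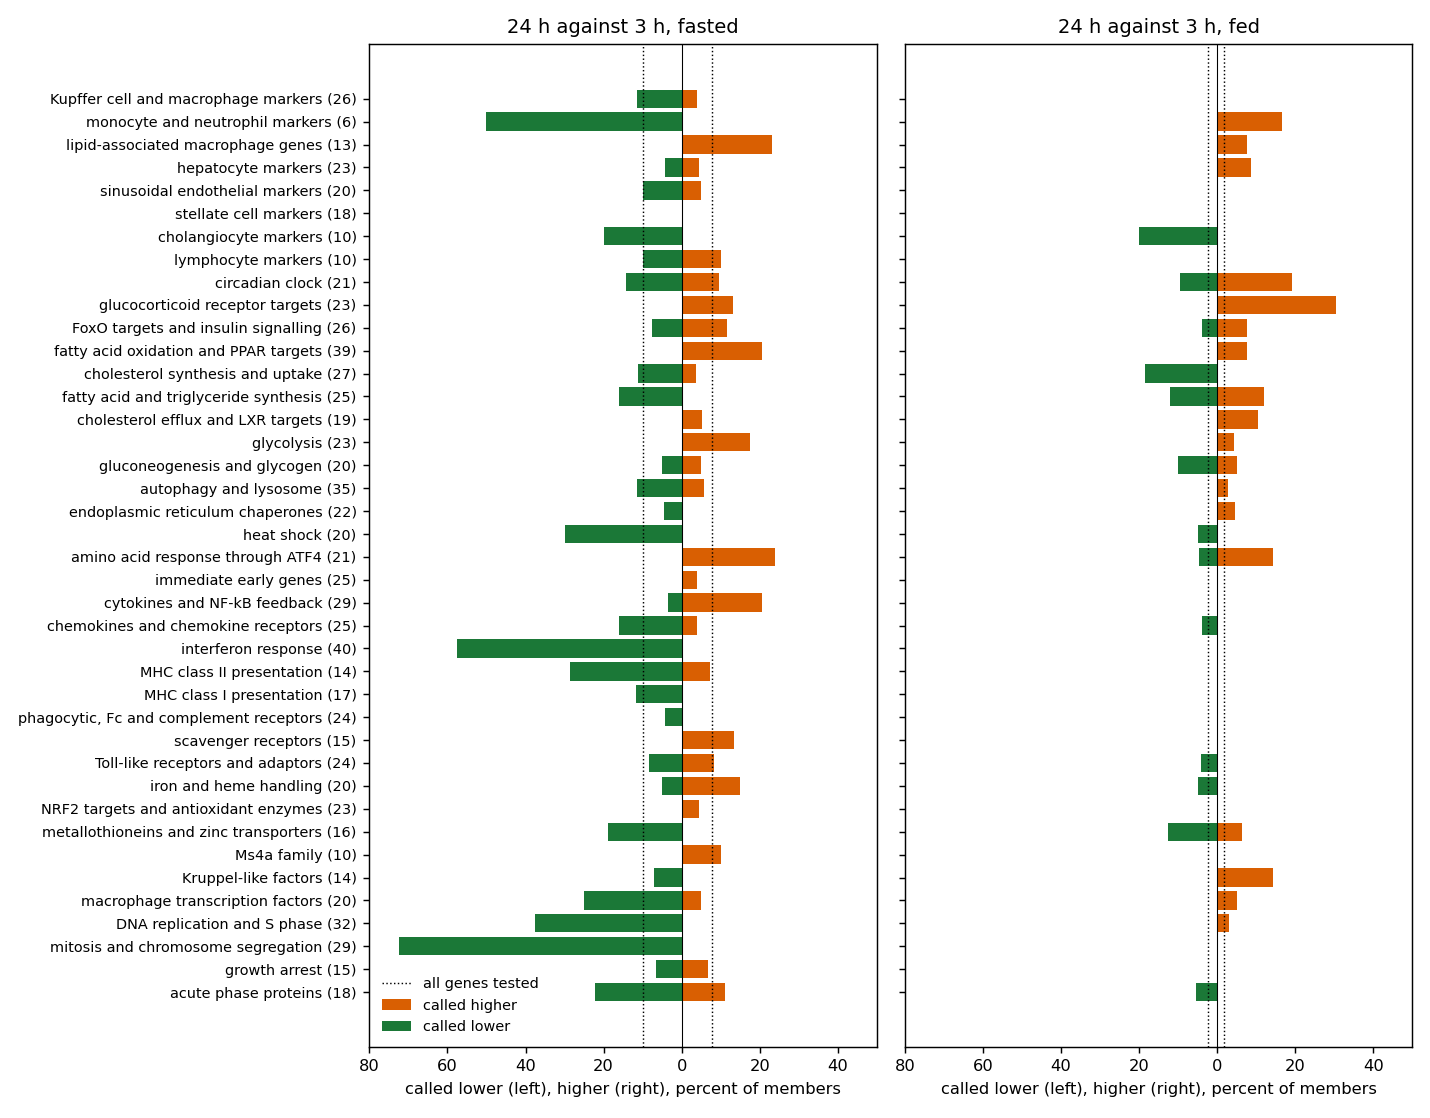
Members of 40 gene lists called lower (green, to the left) or higher (orange, to the right) at 24 h against 3 h in fasted mice (left panel) and in fed mice (right panel), as a percent of the members tested, whose number stands in parentheses. Dotted lines mark the share of all genes tested, 9.87% lower and 7.88% higher in fasted mice; the longest bars are those of mitosis (21 of 29 members lower) and of the interferon response (23 of 40 lower).

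Of 29 mitosis and chromosome segregation genes tested, 21 were lower at 24 h than at 3 h of fasting, beside 9.87% of all genes. None was higher by edgeR, at an unadjusted p under 0.05, or with DESeq2. The median log2 change was -1.57, beside a median of 0.03 over all genes tested. In fed mice edgeR called none and the median was 0.80, with 19 members higher and 0 lower at an unadjusted p under 0.05 and 1 called higher by DESeq2. In these bulk libraries fewer dividing cells and less RNA per dividing cell cannot be told apart. The difference between the fasted and the fed change was called lower for 19 of the 29, beside 2.94% of all genes tested. Without replicate 3 of the 3 h fast, 17 members fell and 17 differences were called. Of the 29 genes, 25 were macrophage-enriched. The list was drawn up with earlier results of these data known.

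Top2a, the topoisomerase that untangles chromosomes before they separate, had 2.62, 2.28, 1.69 and 1.69 CPM in the 24 h fasted libraries, against 16.3, 8.91, 11.1 and 12.4 CPM in the 3 h fasted libraries. The same gene had 42.4, 38.4, 11.9 and 16.8 CPM at 24 h fed, against 13.6, 17.5, 11.2 and 13.02 CPM at 3 h fed. The fasted groups did not overlap, and 2 of the 4 libraries of the 24 h fed group were far above the others. The log2 change was -2.55 ± 0.43 in fasted mice (edgeR adjusted p = 0.00035) and 0.98 ± 0.38 in fed mice (adjusted p = 0.15), and the difference was -3.53 ± 0.58 (adjusted p = 0.00091).

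Bub1, a kinase of the checkpoint that holds cells until all chromosomes are attached, had 0.46, 0.299, 0.108 and 0.361 CPM at 24 h fast, against 2.77, 2.16, 2.86 and 3.09 CPM at 3 h fast, a log2 change of -3.18 ± 0.59 (edgeR adjusted p = 0.00082). Kif11, the motor that pushes spindle poles apart, had 2.58, 2.32, 1.15 and 2.17 CPM at 24 h fast, against 11.7, 6.24, 15.03 and 9.15 CPM at 3 h fast (-2.36 ± 0.42, adjusted p = 0.00067). Neither gene overlapped between the fasted groups, and in fed mice neither change passed the test (0.99 ± 0.46 and 0.94 ± 0.39). Ttk, another checkpoint kinase, had a log2 change of -2.57 ± 0.46 (adjusted p = 0.00069). The 8 members that were not called had changes between -1.85 (Ccnb1, adjusted p = 0.081) and -0.01 (Ccnb2), 2 cyclins named after their values were seen.

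Of 32 genes of DNA replication and S phase tested, 12 fell in fasted mice (median -0.66), beside 9.87% of all genes tested. None was called higher by edgeR or DESeq2 (1 was higher at an unadjusted p under 0.05). Of the 32, 10 fell without replicate 3 of the 3 h fast. A fit to the 8 libraries alone called 5. In fed mice 1 rose, Cdc45 (a subunit of the replicative helicase, 0.95 ± 0.27, edgeR adjusted p = 0.039, a call lost in 6 of 14 alternative settings), and none fell (median 0.54), with 16 higher at an unadjusted p under 0.05 and 5 called higher by DESeq2. The difference was called lower for 13 of the 32, beside 2.94% of all genes tested. In fed mice 1.71% of all genes tested were called higher.

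Clspn, an adaptor of the replication checkpoint, had 0.921, 1.12, 0.323 and 0.482 CPM at 24 h fast, against 6.02, 4.91, 9.87 and 5.14 CPM at 3 h fast (-3.16 ± 0.49, edgeR adjusted p = 0.00019). Pola1, the catalytic subunit of DNA polymerase alpha, had 118, 119, 108 and 114 CPM at 24 h fast, against 182, 142, 284 and 183 CPM at 3 h fast (-0.79 ± 0.16, adjusted p = 0.0016). Neither gene overlapped between the fasted groups, and the fold was larger for Clspn than for Pola1. Uhrf1, which carries DNA methylation over to new strands, had a log2 change of -2.43 ± 0.48 (adjusted p = 0.0015). No Mcm helicase gene of the list was called.

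The summed level of the 29 mitosis genes gives the course over all times. It was 92.0, 101, 64.1 and 64.3 CPM in the 4 libraries at 24 h fast, against 209.6, 156, 192 and 193 CPM at 3 h fast, with no overlap. At 24 h fed it was 607, 542, 172 and 254 CPM, against 199, 297, 181 and 230.3 CPM at 3 h fed. The median over libraries at 3, 8, 16 and 24 h was 192, 173, 117 and 78.2 CPM in fasted mice and 214, 232, 219.5 and 398 CPM in fed mice. The fasted medians went down at each step, and the fed series ended in a group whose libraries spread from 172 to 607 CPM. In that group the hepatocyte markers summed to 8971, 8338.5, 15633 and 15984 CPM in replicates 1 to 4, against 13254, 9014, 10807 and 8511 CPM at 3 h fed. Replicates 1 and 2, with the lower hepatocyte sums at 24 h fed, had the higher mitosis sums, and the part of hepatocyte RNA in this spread was not tested. The 32 replication genes summed to 281 to 329.5 CPM at 24 h fast, against 364 to 459 CPM at 3 h fast, again with no overlap.

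**Figure D2:**
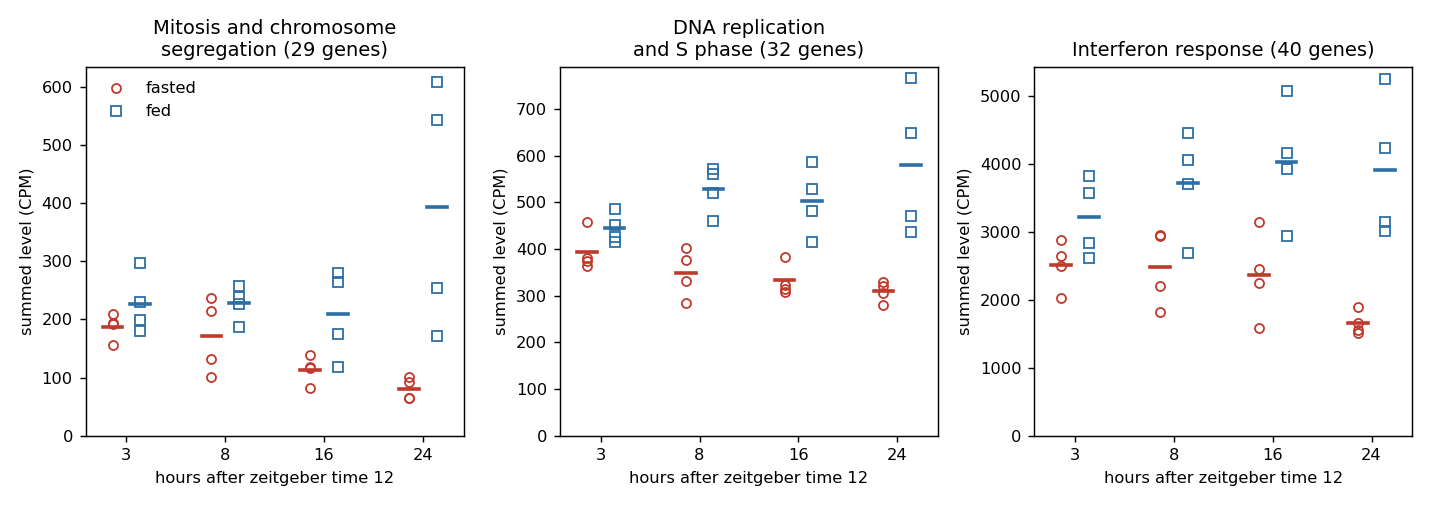
Summed level in CPM of 3 gene lists (vertical axes) at 3, 8, 16 and 24 h after ZT12 (horizontal axes) in fasted (red circles) and fed (blue squares) mice, with 1 symbol per macrophage-tagged library and bars for means. The 24 h fasted libraries lie at 64.1 to 101 CPM for mitosis genes and at 1517 to 1893 CPM for interferon genes, below all 3 h fasted libraries.

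The 12 lowest log2 changes among macrophage-enriched genes that met the rule for naming were those of Esco2 (-3.74 ± 0.68), Neil3 (-3.26 ± 0.53), Depdc1a, Bub1, Clspn, Dtl, Kif18b, Ckap2l, Kntc1, Slc39a12, Kif4 and Shcbp1, between -3.74 and -2.76. Of these, Bub1 and Clspn are members of the lists above, and the roles given for the others were looked up after their values were seen. Esco2 acetylates cohesin during replication, Neil3 removes damaged bases, Dtl marks replication licensing proteins for destruction, Kntc1 acts at the kinetochore, and Kif18b and Kif4 are mitotic kinesins. Slc39a12, a zinc transporter, had 8.84, 7.69, 9.02 and 10.1 CPM at 24 h fast, against 39.0, 40.9, 105 and 58.9 CPM at 3 h fast. It also fell in fed mice (-1.30 ± 0.34, edgeR adjusted p = 0.022) and in fasted hepatocyte nuclei (-1.95 ± 0.51, adjusted p = 0.0070). E2f7, a repressor of cell cycle genes that was not macrophage-enriched, had 1.20, 1.34, 0.718 and 1.51 CPM at 24 h fast, against 5.02, 6.87, 13.2 and 6.35 CPM at 3 h fast (-2.73 ± 0.42, adjusted p = 0.00018), and a change of -0.12 ± 0.44 in hepatocyte nuclei that did not pass the test.

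The promoters of the mitosis genes share short motifs that the list did not use. RefSeq's windows from 250 bases before to 50 after the gene start (build GRCm38.p6) were found for 10595 of the genes tested and for 24 of the 29 mitosis genes. The cell cycle homology region (CHR), searched as TTTGAA or TTTAAA on both strands, occurred in 22 of the 24 windows (91.7%) and in 19.6% of all windows. The CCAAT box (CCAAT, both strands) occurred in 20 of the 24 (83.3%) and in 38.5% of all. CHR elements are known to bind the repressor and activator complexes that time mitotic genes, and CCAAT boxes bind NF-Y. Of 25 windows of replication genes, 9 (36%) held an E2F site, searched as TTTGGCGC, TTTCCCGC, TTTGCCGC or TTTCGCGC on both strands, against 3.85% of all windows. Motifs may overlap one another, and a match is a run of letters, not a measured site.

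The 200 bases before the start are shown for called members with a small p whose motif lies in that stretch, chosen after their values were seen and read in the direction of the gene. Capitals mark CHR and CCAAT letters in Top2a, Kif11 and Cenpf (a kinetochore protein that rises before mitosis) and E2F and CCAAT letters in Pola1. For Kif11 the start used lay 20 bases from the listed gene start, and the bases after it were not found in a transcript of the gene.
Top2a (chr11:99024190-99024389, strand -): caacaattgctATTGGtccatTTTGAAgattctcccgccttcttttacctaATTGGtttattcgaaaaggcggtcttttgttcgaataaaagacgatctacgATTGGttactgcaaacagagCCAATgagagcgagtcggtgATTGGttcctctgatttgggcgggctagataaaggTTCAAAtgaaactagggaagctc
Kif11 (chr19:37376182-37376381, strand +): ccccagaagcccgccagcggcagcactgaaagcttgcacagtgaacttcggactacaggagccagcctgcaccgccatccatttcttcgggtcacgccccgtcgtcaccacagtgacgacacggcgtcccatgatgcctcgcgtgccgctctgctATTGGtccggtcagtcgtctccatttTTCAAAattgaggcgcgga
Cenpf (chr1:189688087-189688286, strand -): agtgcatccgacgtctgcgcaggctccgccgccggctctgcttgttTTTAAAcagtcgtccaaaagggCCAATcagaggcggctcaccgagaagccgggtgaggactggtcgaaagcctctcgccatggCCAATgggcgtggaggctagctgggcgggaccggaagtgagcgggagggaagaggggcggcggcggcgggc
Pola1 (chrX:93632156-93632355, strand -): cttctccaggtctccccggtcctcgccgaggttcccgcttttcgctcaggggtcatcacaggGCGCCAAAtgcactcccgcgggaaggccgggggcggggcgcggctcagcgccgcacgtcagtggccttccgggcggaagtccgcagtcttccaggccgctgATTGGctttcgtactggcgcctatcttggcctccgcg

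Interferon-stimulated genes encode antiviral and immune GTPase proteins and are induced by interferons through interferon-stimulated response elements (ISRE) in their promoters. Of 40 tested, 23 fell at 24 h against 3 h in fasted mice (median -0.69), beside 9.87% of all genes tested. None was higher by edgeR, at an unadjusted p under 0.05, or with DESeq2. In fed mice neither tool called any (median 0.32), with 7 higher and 0 lower at an unadjusted p under 0.05. The difference between the changes was called lower for 15, beside 2.94% of all genes tested. Without replicate 3 of the 3 h fast 21 fell and 13 differences were called lower, beside 841 and 283 of 13901 genes. Without replicate 1 or 2 of the 24 h fast 14 or 12 fell and 6 differences were called in either case.

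Iigp1, an immunity-related GTPase, had 51.3, 49.4, 68.6 and 88.1 CPM at 24 h fast, against 124, 127, 197 and 130.1 CPM at 3 h fast (-1.17 ± 0.21, edgeR adjusted p = 0.00056). Ifit2, which binds foreign RNA, had 7.13, 7.96, 11.3 and 11.1 CPM at 24 h fast, against 22.6, 22.2, 32.04 and 28.1 CPM at 3 h fast (-1.48 ± 0.29, adjusted p = 0.0013). Ifi44 had 3.27, 1.83, 3.88 and 3.07 CPM at 24 h fast, against 8.30, 6.95, 6.92 and 10.2 CPM at 3 h fast (-1.43 ± 0.27, adjusted p = 0.0011). In all 3 genes every 24 h fasted library was below every 3 h fasted library.

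In fed mice the values of these genes overlapped between the times. Ifit2 had 60.4, 41.4, 30.2 and 34.7 CPM at 24 h fed, against 26.6, 34.7, 26.2 and 41.7 CPM at 3 h fed, and the difference between the changes was -1.85 ± 0.40 (edgeR adjusted p = 0.0074). Ifit1, a relative of Ifit2, had a change of -1.70 ± 0.35 in fasted mice (adjusted p = 0.0021) and a difference of -2.52 ± 0.48 (adjusted p = 0.0030). Reads of close relatives such as the Ifit, Oas and Gbp families may have been split between them by the counting. Irf7 and Irf1, interferon regulatory factors named after their values were seen, had changes of -0.13 and -0.43 that did not pass the test.

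Summed over the 40 genes, the level was 1517, 1557, 1893 and 1665 CPM at 24 h fast, against 2492, 2647, 2027 and 2877 CPM at 3 h fast, with no overlap. At 24 h fed it was 5247, 4242, 3021 and 3150.2 CPM, against 2842, 3578, 2623 and 3830.1 CPM at 3 h fed, where the groups overlapped. The fasted medians at 3, 8, 16 and 24 h were 2569.8, 2570.1, 2357 and 1611 CPM, with the lowest at 24 h. In hepatocyte nuclei the median log2 change of the same list, 24 h over 3 h fasted, was -0.34, and Iigp1 fell there too (-1.61 ± 0.26, edgeR adjusted p = 1.7e-05), whereas Ifit2 did not pass the test (-0.22 ± 0.40).

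The ISRE, searched on both strands as TTTC, any 2 bases and TTTC, occurred in 21 of 30 promoter windows of the list (70%) and in 3.19% of all windows. The 200 bases before the start follow, chosen in the same way, for Ifit1, Ifi205 (a DNA sensor of the PYHIN family) and Bst2 (tetherin, which holds budding virus at the cell surface), with ISRE letters in capitals. For Bst2 the start used lay 35 bases from the listed gene start, and the bases after it were not found in a transcript of the gene.
Ifit1 (chr19:34640689-34640888, strand +): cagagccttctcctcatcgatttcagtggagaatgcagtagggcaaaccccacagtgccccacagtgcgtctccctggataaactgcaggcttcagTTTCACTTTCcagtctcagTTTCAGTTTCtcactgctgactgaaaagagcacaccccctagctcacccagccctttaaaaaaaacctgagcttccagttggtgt
Ifi205 (chr1:174031756-174031955, strand -): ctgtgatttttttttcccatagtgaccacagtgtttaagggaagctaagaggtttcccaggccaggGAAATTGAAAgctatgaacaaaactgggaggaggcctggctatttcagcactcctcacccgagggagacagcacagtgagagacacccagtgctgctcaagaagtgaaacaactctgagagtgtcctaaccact
Bst2 (chr8:71537473-71537672, strand -): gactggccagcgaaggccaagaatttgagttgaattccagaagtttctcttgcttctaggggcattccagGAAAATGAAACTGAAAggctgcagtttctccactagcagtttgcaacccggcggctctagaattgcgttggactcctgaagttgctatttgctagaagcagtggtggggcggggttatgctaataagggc

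**Figure D3:**
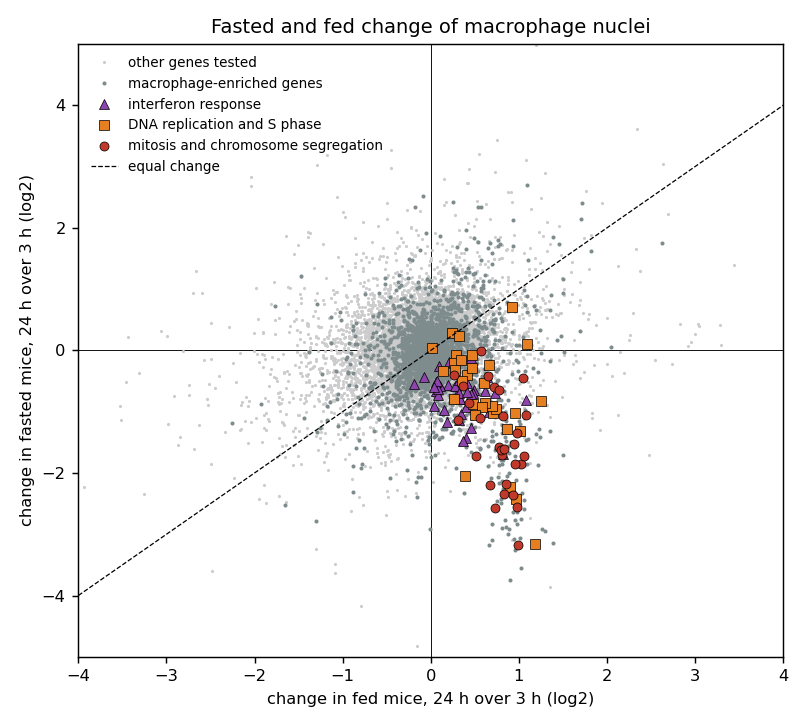
Log2 change of 24 h over 3 h in fasted mice (vertical axis) against that in fed mice (horizontal axis) for the genes tested, 1 point per gene, with members of 3 lists in colour; 7 genes lie outside the axes. The median of the mitosis genes lies below 0 on the fasted axis (-1.57) and above 0 on the fed axis (0.80).

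Of 14 genes of antigen presentation through MHC class II, 4 fell and 1 rose at 24 h of fasting (median -0.64), beside 9.87% and 7.88% of all genes. Without replicate 3 of the 3 h fast 5 fell and 1 rose. Without replicate 1 or 2 of the 24 h fast 1 fell, and without replicate 4 of the 3 h fast 2 fell. In fed mice edgeR called none (median -0.38). The difference between the fasted and the fed change was called higher for 1 and lower for none, beside 1.68% and 2.94% of all genes tested. Ciita, the master regulator of class II genes, had 47.1, 46.2, 45.6 and 44.3 CPM at 24 h fast, against 88.0, 121, 66.4 and 103 CPM at 3 h fast (-1.04 ± 0.26, edgeR adjusted p = 0.0074). H2-Ab1, a class II chain, had 10.6, 10.98, 14.8 and 12.6 CPM at 24 h fast, against 22.4, 29.5, 23.7 and 25.5 CPM at 3 h fast (-1.04 ± 0.30, adjusted p = 0.017).

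The call of H2-Ab1 was lost in 2 of 14 alternative settings (highest adjusted p = 0.053), and that of Ciita in 0 of 14. The 24 h fasted values of Ciita lay close together and below the whole 3 h fasted range. In fed mice Ciita had 71.7, 92.7, 86.5 and 87.3 CPM at 24 h, against 105, 145, 138 and 174 CPM at 3 h, values that did not overlap either, with a change of -0.73 ± 0.25 that did not pass the test, and the difference of the changes did not pass either (-0.31 ± 0.36, edgeR adjusted p = 0.63). H2-DMa, which helps to load peptides onto class II molecules, rose, with 20.1, 19.9, 30.5 and 23.4 CPM at 24 h fast, against 12.9, 14.2, 8.67 and 13.8 CPM at 3 h fast (0.92 ± 0.16, adjusted p = 0.00044). It rose in hepatocyte nuclei as well (1.02 ± 0.19, adjusted p = 0.00017).

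Of 26 Kupffer cell and macrophage markers, 3 fell and 1 rose (median 0.03), beside 9.87% lower and 7.88% higher of all genes tested. The share of markers called was thus near that of all genes (17.8%). Without replicate 3 of the 3 h fast 1 fell and 1 rose. In fed mice edgeR called none (median -0.02). The summed level of these markers was 9005 to 12323 CPM at 24 h fast, against 9823 to 12467 CPM at 3 h fast. Ptprc, the pan-leukocyte phosphatase CD45, had a log2 change of -0.76 ± 0.20 (edgeR adjusted p = 0.0093). Timd4 and Spi1, a receptor for dying cells and the macrophage lineage factor PU.1, had changes of -0.66 ± 0.22 and -0.50 ± 0.15, and both calls were lost without replicate 3 of the 3 h fast (adjusted p = 0.19 and 0.10). Of 14 alternative settings in all, 7 lost the call of Timd4 and 5 that of Spi1.

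Of 6 monocyte and neutrophil markers tested, 3 fell, beside 9.87% of all genes tested. Without replicate 3 of the 3 h fast 2 fell and 1 rose. In fed mice 1 rose, beside 1.71% of all genes tested. Ccr2, the chemokine receptor that brings monocytes out of the marrow, had 1.75, 1.57, 2.44 and 1.69 CPM at 24 h fast, against 4.88, 4.63, 1.66 and 5.89 CPM at 3 h fast (-1.20 ± 0.30, edgeR adjusted p = 0.0086), and replicate 3 of the 3 h fast lay among the 24 h values. Cx3cr1 and Plac8 had changes of -0.79 ± 0.20 and -0.91 ± 0.32, the second call being lost without that replicate (adjusted p = 0.12). Of 14 alternative settings in all, 7 lost the call of Plac8 and 1 that of Cx3cr1. The summed level of the monocyte and neutrophil list was 114 to 152 CPM at 24 h fast, against 114 to 177 CPM at 3 h fast, so the groups overlapped. The part of these cells in the results above was not tested.

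Among macrophage-enriched genes, the highest change that met the rule for naming was that of Marco, a scavenger receptor for bacteria and particles. Marco had 249, 273, 319 and 123 CPM in the 24 h fasted libraries, against 35.7, 33.6, 53.2 and 26.1 CPM in the 3 h fasted libraries. At 24 h fed it had 193, 34.4, 40.7 and 37.7 CPM, against 57.5, 29.9, 27.9 and 28.6 CPM at 3 h fed, where 1 library of the 24 h fed group stood far above its mates. The change was 2.70 ± 0.48 in fasted mice (edgeR adjusted p = 0.00063) and 1.09 ± 0.46 in fed mice (adjusted p = 0.19), and the difference did not pass the test (1.61 ± 0.64, adjusted p = 0.14). Its mean at 8 h and 16 h of fasting was 53.2 ± 18.6 and 205 ± 77.5 CPM (SD, n = 4 each). Marco was the 1 Kupffer cell marker of 26 that rose, and it rose in hepatocyte nuclei too (1.75 ± 0.57, adjusted p = 0.036). The part of macrophage RNA in that hepatocyte change was not tested.

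Zfp811, a zinc finger gene, had 22.3, 21.2, 17.2 and 7.53 CPM at 24 h fast, against 2.15, 3.02, 4.15 and 4.13 CPM at 3 h fast (2.35 ± 0.36, edgeR adjusted p = 0.00015). Its difference to the fed change passed the test (1.81 ± 0.51, adjusted p = 0.038), though not in 11 of 22 alternative settings. Tenm4, a transmembrane cell adhesion protein, had 34.8, 34.9, 48.2 and 33.0 CPM at 24 h fast, against 3.84, 6.63, 13.8 and 10.1 CPM at 3 h fast (2.14 ± 0.32, adjusted p = 0.00015). It rose in fed mice as well, with 22.4, 22.2, 19.2 and 17.3 CPM at 24 h fed and 5.69, 8.10, 5.04 and 5.81 CPM at 3 h fed (1.71 ± 0.33, adjusted p = 0.0022). The other genes named as highest among macrophage-enriched ones were Cstad, Aloxe3, Cercam, Muc2, Syt6, Nos1, Ms4a4a, Tmc3 and Epor, with changes of 1.49 to 2.34. The call of Muc2 was lost without replicate 3 of the 3 h fast (adjusted p = 0.054), and in 4 of 14 alternative settings in all.

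Cstad had 4.23, 4.52, 6.83 and 6.98 CPM at 24 h fast, against 1.04, 1.77, 0.645 and 0.977 CPM at 3 h fast (2.34 ± 0.30, edgeR adjusted p = 2.6e-05), and its difference to the fed change was 1.77 ± 0.42 (adjusted p = 0.014), a call kept in every alternative setting. Coro1a, an actin-binding protein of leukocytes, and Fhl3, a LIM protein, were also among the 6 highest called differences of macrophage-enriched genes whose mean over the 16 libraries reached 1 CPM (1.70 ± 0.49 and 1.60 ± 0.38, adjusted p = 0.043 and 0.014). That of Coro1a was lost in 13 of 22 alternative settings and that of Fhl3 in 1 of 22. Epor, the erythropoietin receptor, had 1.73 ± 0.48 (adjusted p = 0.036), lost in 9 of 22. L1cam, a cell adhesion molecule, had 1.35 ± 0.40 (adjusted p = 0.047), lost in 17 of 22. Its fed change was -1.38 ± 0.29 (edgeR adjusted p = 0.0049), and its fasted groups overlapped.

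Of 13 genes of lipid-associated macrophages, 3 rose, beside 7.88% of all genes tested. None was lower by edgeR, at an unadjusted p under 0.05, or with DESeq2. In fed mice 1 rose, beside 1.71% of all genes tested. Pla2g7, a secreted phospholipase that cleaves oxidised phospholipids, had 309.6, 294, 320.1 and 227 CPM at 24 h fast, against 74.1, 85.7, 194 and 159 CPM at 3 h fast (1.17 ± 0.28, edgeR adjusted p = 0.0058). It had 58.5, 46.8, 60.5 and 35.0 CPM at 24 h fed, against 12.1, 17.8, 14.1 and 26.9 CPM at 3 h fed (1.5 ± 0.28, adjusted p = 0.0020), with every fasted library above every fed one at either time. The difference of the changes did not pass the test (-0.33 ± 0.39), and Pla2g7 rose in hepatocyte nuclei too (2.15 ± 0.48, adjusted p = 0.0015). For Pla2g7, too, the part of macrophage RNA in the hepatocyte change was not tested. Trem2, a lipid receptor, had 4.37, 5.56, 11.9 and 5.48 CPM at 24 h fast, against 2.91, 2.20, 1.34 and 4.23 CPM at 3 h fast (1.35 ± 0.33, adjusted p = 0.0068). Gpnmb, a glycoprotein of lipid-laden macrophages, had 0.828, 0.896, 10.1 and 1.81 CPM at 24 h fast, against 0.657, 0.432, 0.692 and 0.911 CPM at 3 h fast (2.35 ± 0.55, adjusted p = 0.0057), and its groups overlapped. Both calls rest on replicate 3 of the 24 h fast: without it the edgeR change was 0.77 for Gpnmb (adjusted p = 0.19) and 0.93 for Trem2 (adjusted p = 0.0505).

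Ms4a4a, a membrane protein of the CD20 family, had 21.8, 23.1, 44.7 and 31.1 CPM at 24 h fast, against 4.53, 3.57, 16.0 and 13.1 CPM at 3 h fast (1.70 ± 0.43, edgeR adjusted p = 0.0081), and 3.72 ± 2.33 CPM at 24 h fed and 2.14 ± 0.741 CPM at 3 h fed (SD, n = 4 each). Of 29 genes of cytokines and NF-kB feedback, 6 rose and 1 fell, beside 7.88% and 9.87% of all genes tested. Without replicate 3 of the 3 h fast 2 rose and 2 fell, beside 619 and 841 of 13901 genes. In fed mice edgeR called none of the 29. Tnfaip3 (A20), an inhibitor of NF-kB that NF-kB itself induces, had 36.8, 38.2, 47.6 and 29.4 CPM at 24 h fast, against 15.9, 19.0, 18.4 and 20.1 CPM at 3 h fast (1.05 ± 0.21, adjusted p = 0.0016), and its groups did not overlap. Nfkbia, the inhibitor IkB alpha, rose by 0.72 ± 0.21 (adjusted p = 0.018). Neither difference to the fed change passed the test (0.57 ± 0.30 and 0.19 ± 0.29).

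**Figure D4:**
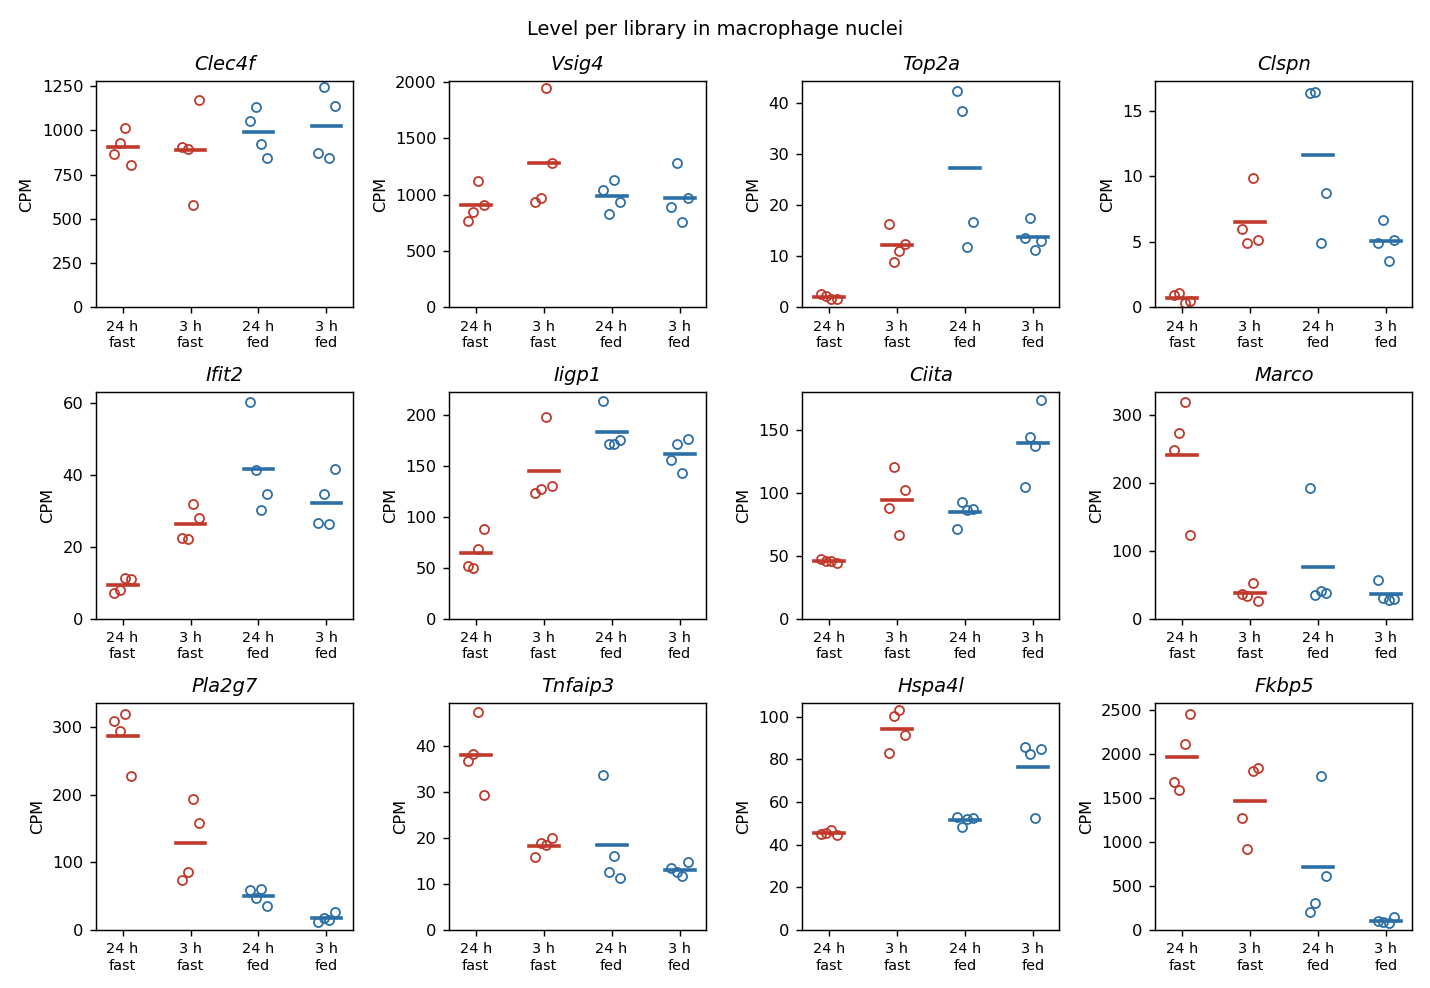
Level in CPM (vertical axes, from 0) of 12 genes in the 24 h fasted, 3 h fasted, 24 h fed and 3 h fed libraries, 1 circle per library, bars for means. Clec4f overlaps across the groups, Top2a and Clspn are lowest at 24 h fast, and Marco reaches 123 to 319 CPM at 24 h fast against 26.1 to 53.2 CPM at 3 h fast.

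Of 20 heat shock genes tested, 6 fell at 24 h against 3 h in fasted macrophage nuclei (median -0.41), beside 9.87% of all genes tested. None was higher by edgeR, at an unadjusted p under 0.05, or with DESeq2. Of these 20, 7 fell without replicate 3 of the 3 h fast, and 3 fell in a fit to the 8 libraries alone. Their summed level was 638 to 857 CPM at 24 h fast, against 777 to 1155 CPM at 3 h fast, so the groups overlapped. The medians at 3, 8, 16 and 24 h were 931, 558, 569 and 731 CPM in fasted mice and 885, 549.6, 553 and 896 CPM in fed mice, lowest at 8 h in both. Hspa4l, a cochaperone of the Hsp110 family, had 44.9, 45.3, 47.0 and 44.6 CPM at 24 h fast, against 82.8, 100.2, 103 and 91.4 CPM at 3 h fast (-1.06 ± 0.16, edgeR adjusted p = 0.00013). Hsp90ab1, the constitutive cytosolic Hsp90, had 81.6, 97.9, 65.3 and 62.9 CPM at 24 h fast, against 135, 166, 163 and 102 CPM at 3 h fast (-0.88 ± 0.19, adjusted p = 0.0036). Chordc1, an Hsp90 cochaperone, had a change of -0.71 ± 0.11 (adjusted p = 0.00026). The groups of Hspa4l and Hsp90ab1 did not overlap in fasted mice.

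In fed mice Hspa4l had 53.0, 48.2, 52.2 and 52.3 CPM at 24 h, against 85.7, 82.6, 52.7 and 84.7 CPM at 3 h (-0.57 ± 0.16, edgeR adjusted p = 0.034), a call lost in 8 of 14 alternative settings. The difference of the changes was not called for it (-0.48 ± 0.22), and 1 member of the list was called lower there, Chordc1 (-0.56 ± 0.16, adjusted p = 0.044), a call that was lost in 14 of 22 alternative settings. In hepatocyte nuclei the median fasted change of the list was 0.24, and Chordc1 rose there (0.54 ± 0.16, adjusted p = 0.020). Of 15 promoter windows of the list, 4 (26.7%) held a heat shock element, searched on both strands as GAA, TTC and GAA with any 2 bases between them, against 0.396% of all windows. The difference between macrophage and hepatocyte nuclei was -1.28 ± 0.23 for Chordc1 (adjusted p = 0.0030) and -1.55 ± 0.39 for Hsp90ab1 (adjusted p = 0.021).

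Clock genes mark the time of day that goes with the comparison. Of 21 tested, 2 rose and 3 fell in fasted mice, and 4 rose and 2 fell in fed mice. The fasted counts lie near the shares of all genes tested (7.88% higher and 9.87% lower), and without replicate 3 of the 3 h fast 1 rose and 2 fell. The fed counts lie above the fed shares of all genes tested (1.71% higher and 2.48% lower). Arntl (Bmal1), the activator at the core of the clock, had 69.4, 70.5, 90.1 and 60.03 CPM at 24 h fast, against 118, 131, 161 and 108 CPM at 3 h fast. It had 33.4, 35.0, 21.8 and 20.9 CPM at 24 h fed, against 128, 69.8, 155 and 111 CPM at 3 h fed. The change was -0.83 ± 0.23 in fasted mice (edgeR adjusted p = 0.015, and 0.054 without replicate 3 of the 3 h fast) and -2.06 ± 0.24 in fed mice (adjusted p = 5.7e-06). The difference was 1.23 ± 0.33 (adjusted p = 0.030), a call that was lost in 7 of 22 alternative settings. Cry1, a clock repressor, had 27.8, 34.7, 31.2 and 33.7 CPM at 24 h fast, against 83.3, 96.9, 124 and 82.1 CPM at 3 h fast (-1.60 ± 0.26, adjusted p = 0.00030), and its fed change did not pass the test (-0.75 ± 0.26). Nfil3, a clock-controlled repressor, fell in fasted and in fed mice (-1.63 ± 0.31 and -1.28 ± 0.31), and Ciart, another repressor of the clock, rose in both (1.56 ± 0.33 and 1.47 ± 0.34).

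Of 23 glucocorticoid receptor targets tested, 3 rose in fasted mice and 7 in fed mice, beside 7.88% and 1.71% of all genes. Without replicate 3 of the 3 h fast 1 rose in fasted mice. None was lower in fasted or in fed mice by edgeR, at an unadjusted p under 0.05, or with DESeq2. The difference was called lower for 2, beside 2.94% of all genes tested. Fkbp5, a feedback inhibitor of the receptor, had 1678, 1588, 2120.2 and 2459 CPM at 24 h fast, against 1273, 917, 1813 and 1845 CPM at 3 h fast (0.42 ± 0.42, edgeR adjusted p = 0.49). It had 199.8, 308, 1753 and 608 CPM at 24 h fed, against 101, 85.8, 74.5 and 143 CPM at 3 h fed (2.83 ± 0.45, adjusted p = 0.00032). All 3 h fasted libraries were thus above all 3 h fed ones, and the difference of the changes was -2.41 ± 0.60 (adjusted p = 0.021). Without replicate 3 of the 24 h fed group the edgeR difference was -1.46 (adjusted p = 0.067). Zbtb16, a transcription factor induced by glucocorticoids, had a change of 0.13 ± 0.51 in fasted and 2.95 ± 0.55 in fed mice (adjusted p = 0.88 and 0.0017) and a difference of -2.82 ± 0.74 (adjusted p = 0.027), lost in 5 of 22 alternative settings. Lpin1, which makes diacylglycerol and is induced by fasting, had 1309 ± 323 CPM at 24 h fast, 994 ± 238 CPM at 3 h fast, 596 ± 378 CPM at 24 h fed and 72.5 ± 26.8 CPM at 3 h fed (SD, n = 4 each). These 3 genes were not macrophage-enriched.

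Few genes of lipid metabolism were macrophage-enriched (1 of 39, 1 of 25 and 0 of 27 in the lists that follow), so hepatocyte values stand beside them. In that order, the median fasted log2 changes of the lists were 0.32, -0.32 and -0.13 in macrophage nuclei. In hepatocyte nuclei they were -0.36, -0.82 and -0.42. Of 39 genes of fatty acid oxidation and PPAR targets, edgeR and DESeq2 called 8 and 9 higher and none lower (1 at an unadjusted p under 0.05), and 4 rose without replicate 3 of the 3 h fast. Over all genes tested edgeR called 7.88% higher. In fed mice 3 of the 39 rose, beside 1.71% of all genes tested. Cpt1a, which imports fatty acids into mitochondria, had 494, 438, 509.8 and 541 CPM at 24 h fast, against 333, 191, 228 and 279 CPM at 3 h fast (0.94 ± 0.23, edgeR adjusted p = 0.0068). It rose in fed mice too (1.04 ± 0.23, adjusted p = 0.0070), and in hepatocyte nuclei the fasted change did not pass the test (0.08 ± 0.22). Ucp2, a mitochondrial carrier and the 1 macrophage-enriched member of the list, rose by 0.91 ± 0.23 (adjusted p = 0.0093).

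Of 25 genes of fatty acid and triglyceride synthesis, 4 fell in fasted mice (5 without replicate 3 of the 3 h fast), beside 9.87% of all genes tested. None was higher in fasted mice by edgeR, at an unadjusted p under 0.05, or with DESeq2. In fed mice 3 rose and 3 fell, beside 1.71% and 2.48% of all genes tested. Scd1, a desaturase, had 21.0, 21.4, 38.7 and 26.0 CPM at 24 h fast, against 75.9, 113, 89.7 and 124 CPM at 3 h fast (-1.91 ± 0.39, edgeR adjusted p = 0.0021), with a hepatocyte change of -2.42 ± 0.48 (adjusted p = 0.00034). Of 27 genes of cholesterol synthesis and uptake, 3 fell and 1 rose in fasted mice, shares near and below those of all genes (9.87% lower and 7.88% higher). In fed mice edgeR called 5 of the 27 lower and 0 higher (median -0.58), beside 2.48% and 1.71% of all genes tested. DESeq2 called 10 lower in fed mice. The difference between the fasted and the fed change was called higher for 2 (1 without replicate 3 of the 3 h fast), beside 1.68% of all genes tested, and lower for 0. Mvk, mevalonate kinase, had 5.71, 4.48, 8.59 and 6.68 CPM at 24 h fast, against 4.64, 3.22, 1.89 and 3.65 CPM at 3 h fast (0.92 ± 0.23, adjusted p = 0.0092), the groups overlapping slightly, and its fed values were 6.76, 4.90, 8.94 and 5.75 CPM at 24 h, against 10.8, 7.56, 14.6 and 9.29 CPM at 3 h (-0.69 ± 0.23, adjusted p = 0.085). The difference was 1.60 ± 0.33 (adjusted p = 0.0049), and Mvk rose in fasted hepatocytes (1.61 ± 0.33, adjusted p = 0.00044).

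Among genes that are not macrophage-enriched, the 4 highest and 4 lowest that met the rule for naming were, apart from E2f7, depleted in tagged nuclei. Tmem163, a zinc efflux protein, had 106, 117, 35.7 and 78.0 CPM at 24 h fast, against 5.92, 6.36, 15.7 and 3.39 CPM at 3 h fast (3.44 ± 0.42, edgeR adjusted p = 1.7e-05), beside 3.51 ± 0.40 in hepatocyte nuclei (adjusted p = 1.9e-08). Pde6c, Tcp10b and Mettl24 rose by 3.11 ± 0.56, 2.96 ± 0.45 and 2.91 ± 0.44, beside hepatocyte changes of 2.70 ± 0.54, 2.76 ± 0.40 and 3.19 ± 0.38. Chrna4, a nicotinic receptor subunit, had 0.046, 0, 0.216 and 0.0602 CPM at 24 h fast, against 0.346, 4.67, 1.48 and 3.71 CPM at 3 h fast (-4.82 ± 0.98, adjusted p = 0.0019), beside -6.15 ± 1.12 in hepatocyte nuclei. Slco1a1, a transporter of bile acids and hormones in hepatocytes, had 8.24, 8.33, 3.52 and 7.47 CPM at 24 h fast, against 39.9, 52.9, 107 and 36.5 CPM at 3 h fast (-3.10 ± 0.56, adjusted p = 0.00067), beside -2.37 ± 0.55 in hepatocyte nuclei. For these 6 genes the change had the same sign and a called adjusted p in both cell types.

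Acmsd, an enzyme of tryptophan breakdown, was called in macrophage nuclei alone. It had 28.2, 18.3, 16.5 and 14.8 CPM at 24 h fast, against 105, 122, 391 and 116 CPM at 3 h fast (-3.24 ± 0.53, edgeR adjusted p = 0.00029), whereas its change in hepatocyte nuclei was -0.59 ± 0.58 (adjusted p = 0.59). The highest 3 h fasted value is that of replicate 3, and without it the change was -2.57 (adjusted p = 0.0014). The difference between the cell types was -2.66 ± 0.84 (adjusted p = 0.064). Over all genes tested in both cell types, the fasted change differed between macrophage and hepatocyte nuclei in 370, of which 166 were called in macrophage nuclei. How much of the change of depleted genes is carried by hepatocyte RNA in the tagged libraries was not tested.

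Of 23 glycolysis genes 4 rose (1 without replicate 3 of the 3 h fast), of 21 genes of the amino acid response through ATF4 5 rose (1 without it), and of 20 macrophage transcription factors 1 rose and 5 fell (1 fell without it). Of 18 acute phase proteins, none of them macrophage-enriched, 2 rose and 4 fell, and 1 rose and 4 fell without that library. Over all genes tested 17.8% were called in fasted mice (7.88% higher and 9.87% lower) and 4.19% in fed mice (1.71% higher and 2.48% lower). Without that library 619 of 13901 genes were called higher and 841 lower in fasted mice. Of 16 metallothionein and zinc transporter genes 3 fell with and without that library, among them Slc30a10, a manganese exporter (-2.19 ± 0.38, edgeR adjusted p = 0.00044), which fell in fed mice as well (-1.89 ± 0.36). Of 24 phagocytic, Fc and complement receptors 1 fell, a call that was lost without the library. Of 25 immediate early genes 1 rose, Dusp2 (1.76 ± 0.47, adjusted p = 0.011). Of 20 sinusoidal endothelial markers 1 rose and 2 fell (1 rose and 1 fell without that library). Of 10 cholangiocyte markers 2 fell in fasted mice, both calls being lost without that library, and 2 fell in fed mice.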

How the data were processed

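Read counts per gene, not normalised, were deposited by the authors for all 80 libraries in 1 table of 20105 genes. Per the submitters' processing notes, STAR 2.4.2a, DESeq2 1.24.0 and build mm10 were used upstream; the counting tool and its use of strand were not given in the sources used here. Listed lengths span whole genes with introns. How reads of overlapping genes and close paralogs were assigned is not known here. Per the labels' protocols, strand-specific libraries were sequenced as paired reads of 50 bases.

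The test was run with edgeR 4.0.16 under R 4.3.3: filterByExpr (count minimum 10, total minimum 15), TMM scaling, a robust quasi-likelihood F-test and Benjamini-Hochberg adjustment at 0.05. Fasted, fed and difference contrasts come from 1 fit to all 32 macrophage-tagged libraries, enrichment from these with 8 pools (condition as a term), and hepatocyte values from all 64 tagged libraries. Standard errors derive from the F statistic. CPM of single genes are counts divided by the library total of the filtered genes, scaled by TMM. Summed levels of lists and markers were computed from the deposited counts by dividing by each library's sum.

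Replicates are numbered in accession order and pair nothing. No 2 libraries of a group were identical. The fit was tested on simulated counts with known changes. Members and lists were chosen with earlier results of these data known. Genes were named by rank of change among called, non-overlapping genes with at least 1 CPM (12 highest and lowest macrophage-enriched, 4 of other genes, 6 differences) and by up to 4 called members per list. A few genes that met the rule are not reported here. Alternatives were RLE scaling, no filter, DESeq2 1.42.0, the compared libraries alone, a hepatocyte marker covariate, runs of library numbers as a block, and each library left out.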

Additional observations from a re-analysis of the deposited data

Results flagged for a closer look

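Groups of 4 libraries were searched for 1 value far from the other 3 in 38 described genes and 3 list sums, 164 sets in all, with Dixon's test; 11 sets were marked, and chance marks about 1 in 20. Replicate 3 of the 24 h fast was highest for Gpnmb (10.1 CPM), Trem2 (11.9 CPM) and Tenm4 (48.2 CPM). Replicate 3 of the 3 h fast was highest for Acmsd (391 CPM) and Iigp1 (197 CPM). Replicate 1 of the 24 h fed group was highest for Marco (193.0 CPM) and Iigp1 (214 CPM), and replicate 1 of the 3 h fed group was highest for Marco (57.5 CPM) and Acmsd (81.5 CPM). Hspa4l was lowest in replicate 2 of the 24 h fed group (48.2 CPM) and in replicate 3 of the 3 h fed group (52.7 CPM).

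The 24 h over 3 h change differed between fasted and fed mice, by edgeR's test of the difference itself, for 18 of the 38 genes. Some of the 38 were named because this difference was called, so their count gives no rate. The share over all genes tested was 4.62%. Cell division genes had differences (fasted minus fed, log2) of -3.53 for Top2a, -4.17 for Bub1, -3.30 for Kif11, -4.35 for Clspn, -3.40 for Uhrf1 and -1.05 for Pola1. Interferon genes had -1.35 for Iigp1, -1.82 for Ifi44, -1.85 for Ifit2 and -2.52 for Ifit1. Positive differences were those of H2-DMa (1.16), Zfp811 (1.81), Arntl (1.23), Mvk (1.60) and Tmem163 (2.69). The other negative ones were Fkbp5 (-2.41), Lpin1 (-2.64) and Chrna4 (-4.66).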

How the results depend on the processing

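No paired analysis was possible because replicates are numbered in accession order and no label pairs libraries across groups; runs of consecutive library numbers as a block left 133 of the 138 named fasted calls. A fit to the compared libraries alone called 165 genes higher and 309 lower in fasted mice (28 and 158 macrophage-enriched), 5 replication and 3 heat shock genes lower, and 107 differences higher and 246 lower (5 macrophage-enriched higher); 67 of 137 named calls remained. With the hepatocyte marker covariate, 268 macrophage-enriched genes were called higher in fasted mice, 398 and 701 genes higher and lower in fed mice, and 400 differences higher (32 macrophage-enriched), with 28 interferon differences lower. DESeq2 called 393 higher and 560 lower in fed mice and 413 and 734 differences. Without a filter, 9 macrophage-enriched differences were called higher and 9 interferon differences lower. Leaving out 1 library at a time gave 619 to 1303 genes higher and 836 to 1713 lower in fasted mice, of which 74 to 161 and 229 to 423 were macrophage-enriched. It gave 16 to 21 mitosis, 8 to 12 replication, 12 to 23 interferon, 1 to 5 MHC class II and 5 to 7 heat shock genes lower. In fed mice it gave 126 to 199 higher and 190 to 387 lower. The differences ranged over 99 to 345 higher and 229 to 732 lower (5 to 18 and 107 to 215 macrophage-enriched), 17 to 24 for mitosis, 9 to 17 for replication and 6 to 20 for interferon genes. Causes were not tested. No named call changed sign. Genes near 1 CPM, such as Bub1 and Gpnmb, are limited by depth.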
